A study of Mus musculus with 6 samples.

Results

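The proteins of the mitochondrial ribosome are encoded by nuclear genes named Mrps for the small subunit and Mrpl for the large subunit. The genes described here are the entries of the expression table whose symbol is Mrps or Mrpl followed by a number and at most 1 letter. There were 78 such genes among the 16131 listed, 29 of the small and 49 of the large subunit, and each of the 78 reached the level needed for testing. They were measured in skin taken on day 7 after wounding from C57BL/6 mice with diabetes induced by streptozotocin, which destroys pancreatic beta cells. The 3 control samples had received phosphate-buffered saline (PBS) at 10 µl per day, and the 3 treated samples recombinant fibroblast growth factor 4 (rFGF4) at 100 ng/ml and 10 µl per day. Both groups were diabetic and wounded, and the labels name neither non-diabetic nor unwounded skin, nor age, sex or pooling of the animals. The labels do not say whether replicates came from separate animals, so the p-values measure the spread between these samples, which may be technical. Read depth is unknown, since the table gives FPKM, whose listed totals were 304717 to 319807 per sample. In bulk tissue, fewer cells of a type and less RNA per cell cannot be told apart.

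The mitochondrial ribosome translates the messages of mitochondrial DNA, which encode core subunits of the respiratory chain and of ATP synthase. Its small subunit holds the decoding centre and its large subunit the site where peptide bonds form. Some of its proteins descend from bacterial ribosomal proteins, and others are found only in mitochondria. A symbol does not always give the place of the protein: in mammalian structures Mrps30 and Mrps18a lie in the large subunit, and Mrps36 is known as a subunit of the 2-oxoglutarate dehydrogenase complex. The gene ontology column of the authors' deposited table places Mrps30 in the large subunit, Mrps18a and Mrpl42 in both, and Mrps36 and Mrps35 in neither. Symbols are used below as the division, and the division by structure is given where subunits are compared.

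Nuclear genes for mitochondrial proteins often carry sites for ETS factors such as GABPA, for NRF1 and for YY1 near their start. RefSeq promoters (GRCm38.p6, 250 bases before to 50 after the gene start) were matched for 69 of the 78 genes, with 75 promoter entries. The ETS core CCGGAAG, read on both strands, was present in 26 of the 75 (34.7%), against 16.5% of the 13199 promoters of tested genes of the same length. The NRF1 motif was present in 17.3% against 9.08%, and the YY1 motif AAGATGGC in 16.0% against 4.14%. The ETS core was present in 40.7% of small subunit and 31.2% of large subunit promoters. Among entries of the genes called lower below it was present in 8 of 14, and among those of the other genes in 18 of 61. Of the 13 called genes with a promoter entry, 5 lacked it: Mrps36, Mrpl20, Mrpl23, Mrpl14 and Mrpl42. The other motifs were distributed differently: YY1 was present in 7.14% of entries of called genes and 18.0% of the others, and NRF1 in 11.1% of small and 20.8% of large subunit promoters. These matches describe letters in a window and are not shown to be bound. The promoters of Mrpl52, Mrps21, Mrps33 and Mrpl20, genes that fell, are shown 5′ to 3′ beside that of Mrps2, the gene with the largest positive value, to show windows with and without the core. Capitals mark the ETS core on either strand.
Mrpl52, chr14:54426659-54426958, plus strand: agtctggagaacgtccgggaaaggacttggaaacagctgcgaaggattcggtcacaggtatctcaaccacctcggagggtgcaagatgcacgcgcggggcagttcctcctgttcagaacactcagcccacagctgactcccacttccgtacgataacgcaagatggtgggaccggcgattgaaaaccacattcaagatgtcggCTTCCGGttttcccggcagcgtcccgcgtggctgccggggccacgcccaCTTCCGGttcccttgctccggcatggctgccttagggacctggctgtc
Mrps21, chr3:95871465-95871764, minus strand: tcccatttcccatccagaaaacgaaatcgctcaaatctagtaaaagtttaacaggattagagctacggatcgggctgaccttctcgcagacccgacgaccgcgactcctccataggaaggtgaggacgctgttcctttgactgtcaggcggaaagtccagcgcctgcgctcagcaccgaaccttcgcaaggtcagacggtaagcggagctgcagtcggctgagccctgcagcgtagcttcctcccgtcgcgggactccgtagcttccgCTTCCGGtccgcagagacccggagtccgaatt
Mrps33, chr6:39810887-39811186, minus strand: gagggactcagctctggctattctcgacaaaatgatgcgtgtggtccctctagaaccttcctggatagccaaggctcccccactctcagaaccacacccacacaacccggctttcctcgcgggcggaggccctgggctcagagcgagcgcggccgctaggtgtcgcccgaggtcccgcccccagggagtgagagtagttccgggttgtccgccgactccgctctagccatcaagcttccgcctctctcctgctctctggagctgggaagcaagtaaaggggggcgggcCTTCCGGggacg
Mrpl20, chr4:155802628-155802927, plus strand: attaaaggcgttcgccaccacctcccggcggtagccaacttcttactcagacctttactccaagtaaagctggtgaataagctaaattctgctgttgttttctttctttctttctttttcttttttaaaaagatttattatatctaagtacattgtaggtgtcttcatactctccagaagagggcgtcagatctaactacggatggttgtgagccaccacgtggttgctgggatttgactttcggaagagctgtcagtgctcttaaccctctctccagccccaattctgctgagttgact
Mrps2, chr2:28467816-28468115, plus strand: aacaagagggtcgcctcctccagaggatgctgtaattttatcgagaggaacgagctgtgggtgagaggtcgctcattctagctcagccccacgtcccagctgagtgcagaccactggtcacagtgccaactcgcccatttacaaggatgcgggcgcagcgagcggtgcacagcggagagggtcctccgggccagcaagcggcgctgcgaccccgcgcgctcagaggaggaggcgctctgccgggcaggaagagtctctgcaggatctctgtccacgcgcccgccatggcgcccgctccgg
Mrpl52 held the core at 2 places, Mrps21 and Mrps33 each at 1, and the Mrpl20 and Mrps2 windows at none.

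With rFGF4, 14 of the 78 genes fell and 0 rose by limma on log2(FPKM + 0.1), with a Benjamini-Hochberg adjusted p under 0.05 over all 14676 genes tested. The share of genes called lower was 17.9% among the 78 and 3.62% among all tested genes, and the share called higher 0% and 8.46%. FPKM is a level per length of transcript and per depth of library. At an unadjusted p under 0.05, 24 genes were lower (6.58% of all tested genes) and 1 was higher (25.5%). The fall was at least 2-fold in 4 of the 14 (2.81% of all genes), which were Mrpl52, Mrps21, Mrpl54 and Mrps33. Of the 78 fold changes 59 were negative, where 30.2% of all tested genes had negative values. The median log2 fold change was -0.20 over the 78 and 0.19 over all tested genes. All 3 rFGF4 samples lay below all 3 PBS samples in 27 of the 78 (7.36% of all genes), and above them in Mrps2 alone (30.9%).

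Centring each sample on its median moved every log2 fold change by -0.18, and the share of all calls that were higher from 70.0% to 18.3%. Quantile normalization gave 31.4% higher. The 14 genes were called lower under both scalings, within 16 and 15 calls among the 78. Fewer genes were called with 1 sample left out. Of the 78, 2 were called without PBS replicate 1, 2 or 3 or without rFGF4 replicate 1 or 3. Without rFGF4 replicate 2, 12 were called. Over all tested genes the calls fell from 1773 to between 156 and 890. Whether these losses came from single samples or from the smaller groups was not tested. Mrpl52 and Mrps21 were called in all 6 of those fits. Mrpl42, Mrpl57 and Mrps16 were called in 0 of them, with adjusted p up to 0.147, and each of the other 9 only without rFGF4 replicate 2.

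**Figure D1:**
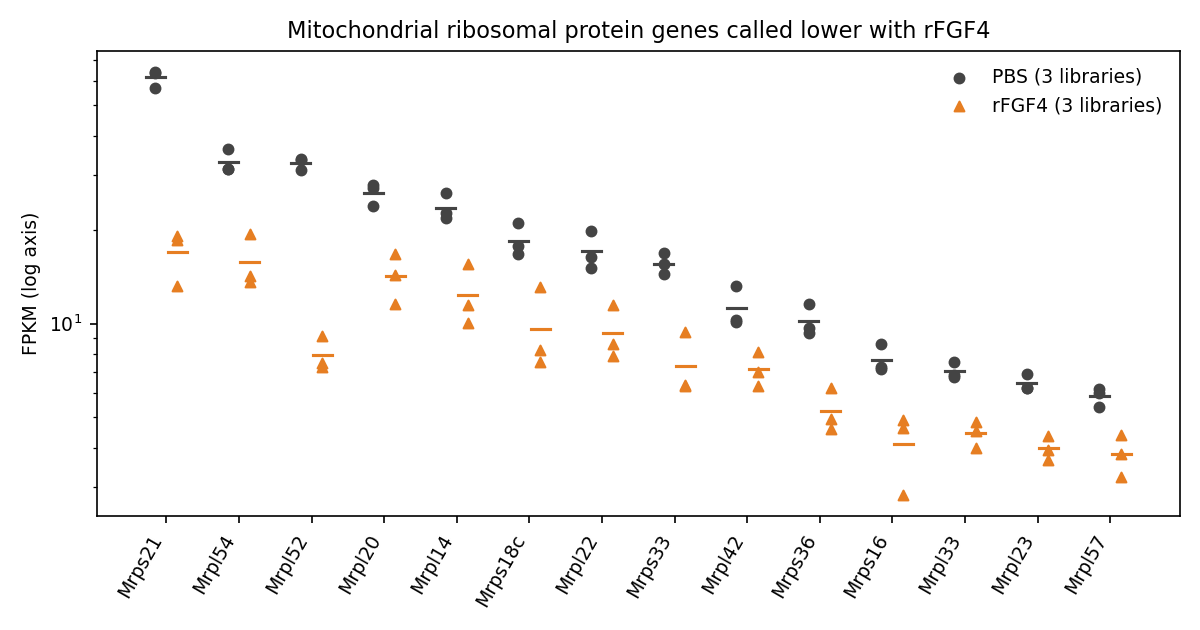
FPKM on a log axis of the 14 genes called lower, ordered by their PBS mean, with 1 point per sample (3 PBS, circles; 3 rFGF4, triangles) and a bar at each group mean. In each gene all rFGF4 points lie below all PBS points, and the widest gaps are those of Mrps21 (61.4 against 16.9 FPKM) and Mrpl52 (32.7 against 7.94 FPKM).

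In the small subunit 5 of 29 genes fell. Mrps21, the mitochondrial relative of a bacterial small subunit protein, was the most abundant of the 78 in PBS skin. It measured 64.0, 63.5 and 56.7 FPKM in PBS replicates 1 to 3 and 13.1, 19.1 and 18.5 FPKM in rFGF4 replicates 1 to 3. The groups were far apart, with means of 61.4 ± 4.06 and 16.9 ± 3.26 FPKM (SD, n = 3 each). Its log2 fold change was -1.87 (SE 0.168, limma adjusted p = 0.00366). Mrps33, a protein with no bacterial counterpart, measured 16.8, 15.5 and 14.4 FPKM in PBS and 6.29, 9.38 and 6.34 FPKM in rFGF4 samples. The highest rFGF4 value was thus well under the lowest PBS value, and the log2 fold change was -1.10 (SE 0.179, limma adjusted p = 0.0196).

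Mrps16, a relative of a bacterial protein whose loss in people impairs respiratory chain assembly, measured 8.61, 7.14 and 7.25 FPKM in PBS and 2.82, 4.90 and 4.62 FPKM in rFGF4 samples. rFGF4 replicate 1 was the lowest, and the call was close to the threshold (log2 fold change -0.92, SE 0.224, limma adjusted p = 0.0451). Mrps36 fell from 10.2 ± 1.17 to 5.26 ± 0.863 FPKM (SD, n = 3 each; limma adjusted p = 0.0201). Mrps18a, Mrps18b and Mrps18c are paralogous genes related to a single bacterial protein, and their values differed. Mrps18c measured 21.0, 16.7 and 17.6 FPKM in PBS and 7.50, 13.1 and 8.21 FPKM in rFGF4 samples, a fall with a log2 fold change of -0.97 (limma adjusted p = 0.0399). Mrps18a, at 7.13, 6.15 and 6.41 against 5.21, 5.78 and 5.40 FPKM, did not pass although its groups were apart (log2 fold change -0.26, adjusted p = 0.185). Mrps18b overlapped between the groups, at 10.3, 7.70 and 9.14 against 10.7, 11.2 and 9.25 FPKM (log2 fold change 0.21, adjusted p = 0.382). The differences between the 3 paralogues were not tested.

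No small subunit gene passed in the upper direction. Mrps2, a relative of a bacterial small subunit protein, measured 8.79, 7.85 and 8.75 FPKM in PBS and 11.1, 12.2 and 9.93 FPKM in rFGF4 samples. Its groups did not overlap, yet the value missed the threshold (log2 fold change 0.39, SE 0.123, adjusted p = 0.0839). Mrps12, a protein of the decoding centre, missed it on the lower side, with 19.5, 16.8 and 14.3 against 9.16, 13.4 and 11.1 FPKM (log2 fold change -0.59, adjusted p = 0.077). Mrps25, with an annotated transcript of 6073 bases, measured 9.93 ± 0.719 and 6.47 ± 1.72 FPKM (adjusted p = 0.0849). Mrps22, Mrps27, Mrps30 and Mrps31 had overlapping groups and log2 fold changes of 0.30, 0.25, 0.27 and 0.21 (adjusted p from 0.246 to 0.498). Mrps17 (log2 fold change -0.20) also overlapped, as did Mrps35, the least abundant of the 78, at 2.33 ± 0.305 and 2.52 ± 0.312 FPKM.

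In the large subunit 9 of 49 genes fell. Mrpl52, a protein specific to mitochondria, measured 33.5, 31.1 and 33.4 FPKM in PBS and 7.23, 9.14 and 7.45 FPKM in rFGF4 samples. The samples of each group were close together, and the log2 fold change of -2.03 (SE 0.126, limma adjusted p = 0.00154) was a 4.10-fold fall. Mrpl54, also specific to mitochondria, measured 36.2, 31.2 and 31.1 FPKM in PBS and 13.6, 19.3 and 14.2 FPKM in rFGF4 samples. It fell by 1.08 on the log2 scale (SE 0.164, limma adjusted p = 0.0169), and rFGF4 replicate 2 was the nearest to PBS.

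Mrpl14, which sits at the face that meets the small subunit, measured 26.3, 22.6 and 21.7 against 10.0, 15.6 and 11.5 FPKM. Mrpl20 measured 27.7, 27.2 and 23.8 against 11.6, 16.7 and 14.3 FPKM. These falls were 1.92-fold and 1.86-fold (limma adjusted p = 0.0277 and 0.023). Mrpl22 and Mrpl23 lie near the exit of the peptide tunnel. Mrpl22 measured 19.8, 15.0 and 16.3 against 7.89, 11.4 and 8.59 FPKM, and Mrpl23 6.87, 6.21 and 6.23 against 3.66, 4.36 and 3.93 FPKM. Both fell, by 0.87 and 0.68 on the log2 scale (limma adjusted p = 0.0309 and 0.0245). Mrpl33, Mrpl42 and Mrpl57 fell 1.57-fold, 1.56-fold and 1.53-fold (limma adjusted p = 0.0277, 0.0449 and 0.0469), with rFGF4 means of 4.46 ± 0.430, 7.13 ± 0.894 and 3.81 ± 0.593 FPKM (SD, n = 3).

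The other large subunit genes did not pass. Mrpl12, a protein of the stalk that binds translation factors, measured 39.8, 32.3 and 31.2 against 17.2, 29.8 and 25.1 FPKM. Its groups were just apart and rFGF4 replicate 1 was far below the other two (log2 fold change -0.54, adjusted p = 0.142). Mrpl10, which anchors that stalk, measured 19.8, 16.1 and 17.1 against 19.8, 23.6 and 21.3 FPKM (log2 fold change 0.29, adjusted p = 0.176). Mrpl24 and Mrpl18, among the 3 most abundant of the 78 by the mean over all 6 samples, measured 36.8 ± 1.60 and 31.8 ± 3.81 FPKM in PBS and 31.7 ± 1.44 and 29.5 ± 2.97 FPKM in rFGF4 samples (adjusted p = 0.211 and 0.645). Mrpl58, a peptidyl-tRNA hydrolase built into the large subunit, measured 8.22 ± 1.15 and 7.12 ± 1.06 FPKM (adjusted p = 0.425). Mrpl47, Mrpl3, Mrpl50, Mrpl1 and Mrpl37 had log2 fold changes of 0.23, 0.15, 0.13, 0.12 and 0.049. Of these, those of Mrpl3, Mrpl50, Mrpl1 and Mrpl37, and that of Mrps35, were negative after median centring, and those of Mrpl47 and Mrps30 with the length trend removed. Mrpl15 and Mrpl17, at -0.20 and -0.35, had groups that overlapped.

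**Figure D2:**
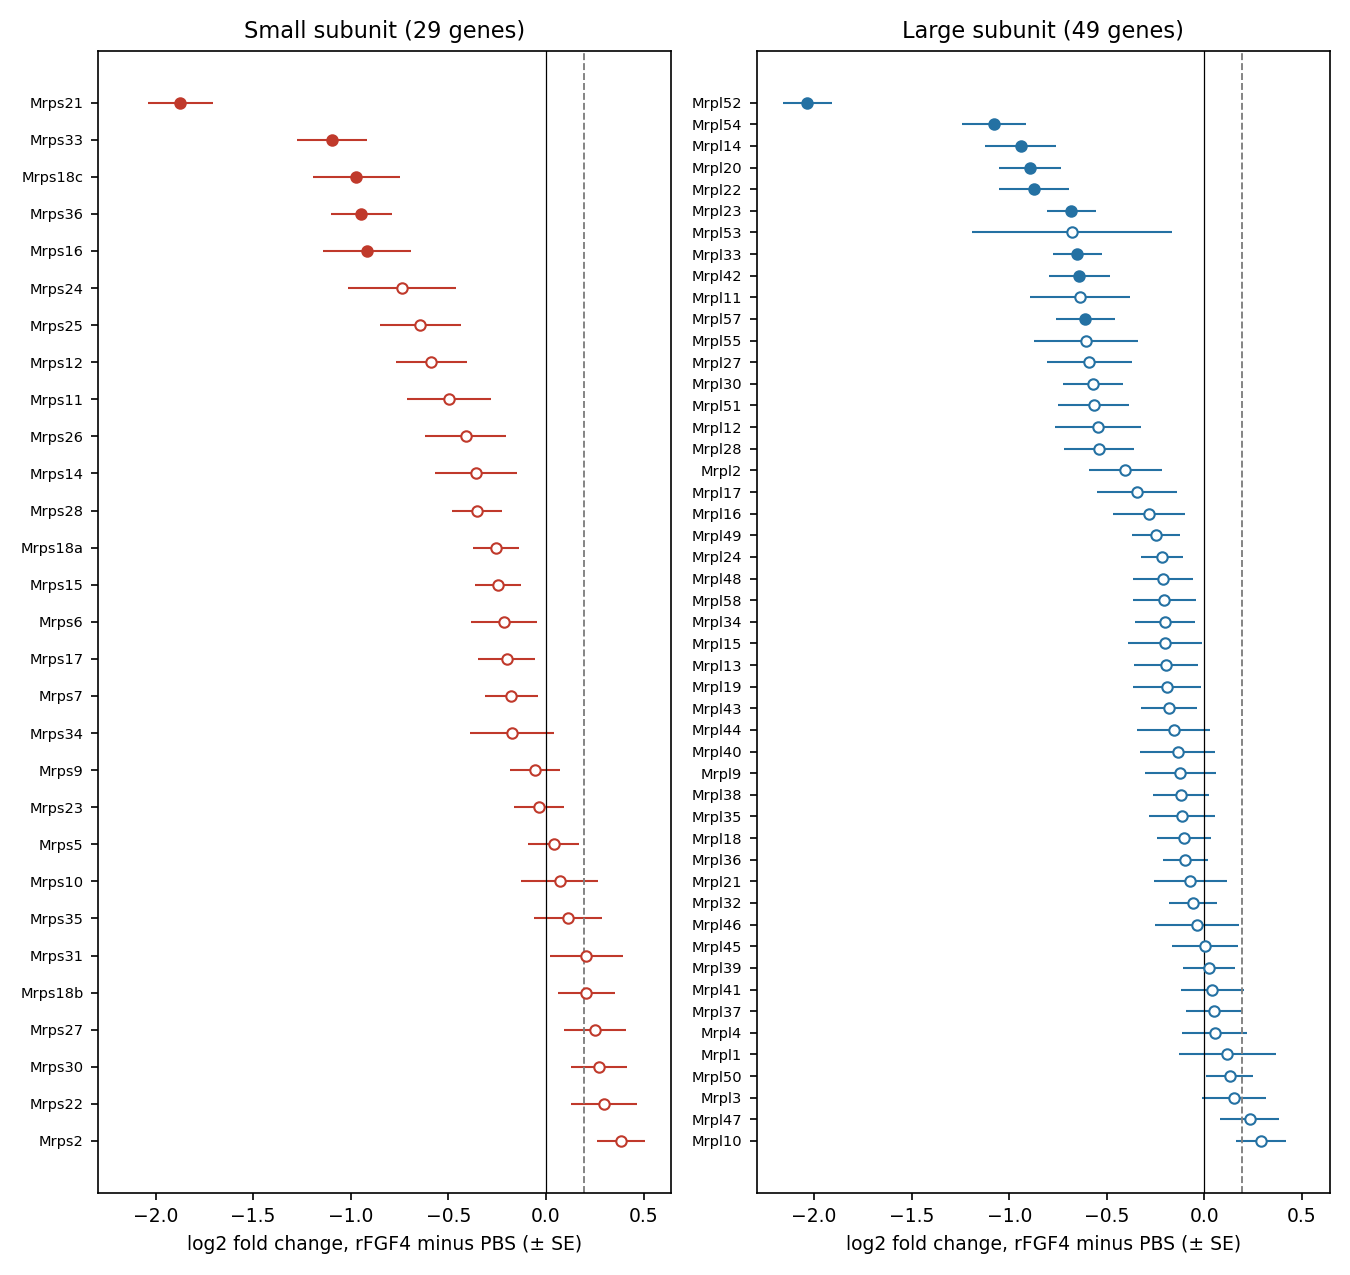
Log2 fold change (rFGF4 minus PBS) of each of the 29 small subunit and 49 large subunit genes, with bars for its standard error. Filled points are genes called by limma, the solid line marks 0 and the dashed line the median of all tested genes (0.19). The 5 and 9 called genes are all on the left, and both columns span from near -2 to below 0.5.

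The summary values of the small and large subunits were close. The median log2 fold change was -0.22 over the small and -0.20 over the large subunit genes, and 17.2% and 18.4% of them were called lower. The small minus large difference of medians was -0.015, and -0.0068 with Mrps30 and Mrps18a counted as large and Mrps36 left out. That division held 4 small and 9 large subunit calls. The difference moved with the settings, from -0.14 among genes of at least 5 FPKM to 0.13 with the length trend removed on the shortest principal transcript. Per sample, the median deviation from each gene's mean was 0.25, 0.038 and 0.060 (log2) for the small subunit in PBS replicates 1 to 3 and -0.29, 0.069 and -0.13 in rFGF4 replicates 1 to 3. The corresponding large subunit medians were 0.31, 0.029 and 0.063 in PBS and -0.31, 0.10 and -0.20 in rFGF4 samples. The subunits thus moved together from sample to sample, while rFGF4 replicate 2 lay above PBS replicates 2 and 3 in both.

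The summed level of the small subunit genes was 388, 341 and 337 FPKM in PBS and 228, 293 and 253 FPKM in rFGF4 samples. The summed level of the large subunit genes was 819, 685 and 692 FPKM in PBS and 505, 662 and 550 FPKM in rFGF4 samples. The ratio of the small to the large sum was 0.474, 0.497 and 0.487 in PBS and 0.451, 0.442 and 0.459 in rFGF4 samples, lower in all rFGF4 samples. This order rested on Mrps21: without it the ratio was 0.396, 0.405 and 0.405 in PBS and 0.425, 0.414 and 0.426 in rFGF4 samples, higher in all rFGF4 samples. No test was made of sums or medians over genes, which are not replicates.

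**Figure D3:**
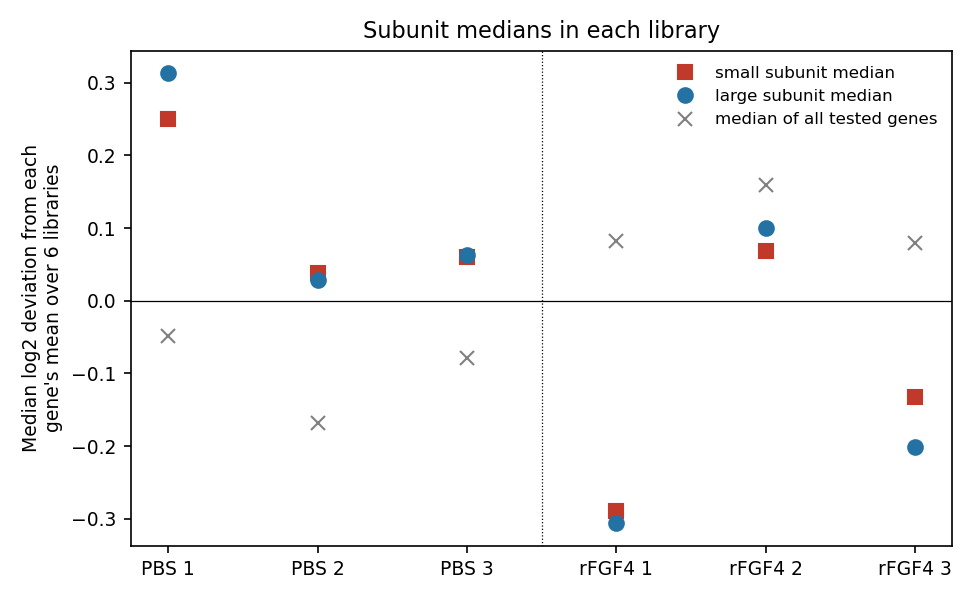
Median over genes of the log2 deviation from each gene's mean over the 6 samples, for small subunit genes (squares), large subunit genes (circles) and all tested genes (crosses), per sample. Both subunit medians are highest in PBS 1 (0.25 and 0.31) and lowest in rFGF4 1 (-0.29 and -0.31), and stay close to each other in every sample, whereas the median of all genes is below 0 in PBS and above 0 in rFGF4 samples.

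The rFGF4 samples differed in a regular way. In all 14 called genes rFGF4 replicate 1 was the lowest and replicate 2 the highest of the treated samples. Over the 78 genes replicate 1 was the lowest in 52 and replicate 2 the highest in 68, where over all tested genes these shares were 38.6% and 42.0%. Among the controls PBS replicate 1 was the highest in 71 of the 78, against 45.7% of all tested genes. Whether depth or RNA quality moved with this order was not tested, since FPKM keep no read counts.

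Transcript length is a limit on these values. Across the 14191 tested genes with an annotated length, fold changes rose with length (Spearman's rank correlation 0.50, a description across genes, which share the 6 samples). Across the 78 genes the rank correlation was 0.47, at 0.39 in the small and 0.52 in the large subunit. The 78 had short transcripts, with a median of 1302 bases against 2719 for all tested genes, and subunit medians of 1197 and 1316 bases. Of the 16 with transcripts under 800 bases 11 fell, whereas of the 62 at or above 800 bases 3 fell, Mrps33, Mrps16 and Mrpl57. Among all tested genes 27.1% under 800 bases and 1.05% of the others were called lower. Within length classes, 61 of the 78 lay below the median of all genes of their class. The 13 genes of 600 to 800 bases had a median of -0.68, where all 482 genes of that class had -0.39. The 9 genes of 4000 bases and over had a median of -0.20, where the 3959 genes of that class had 0.38, and all 9 lay below it.

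**Figure D4:**
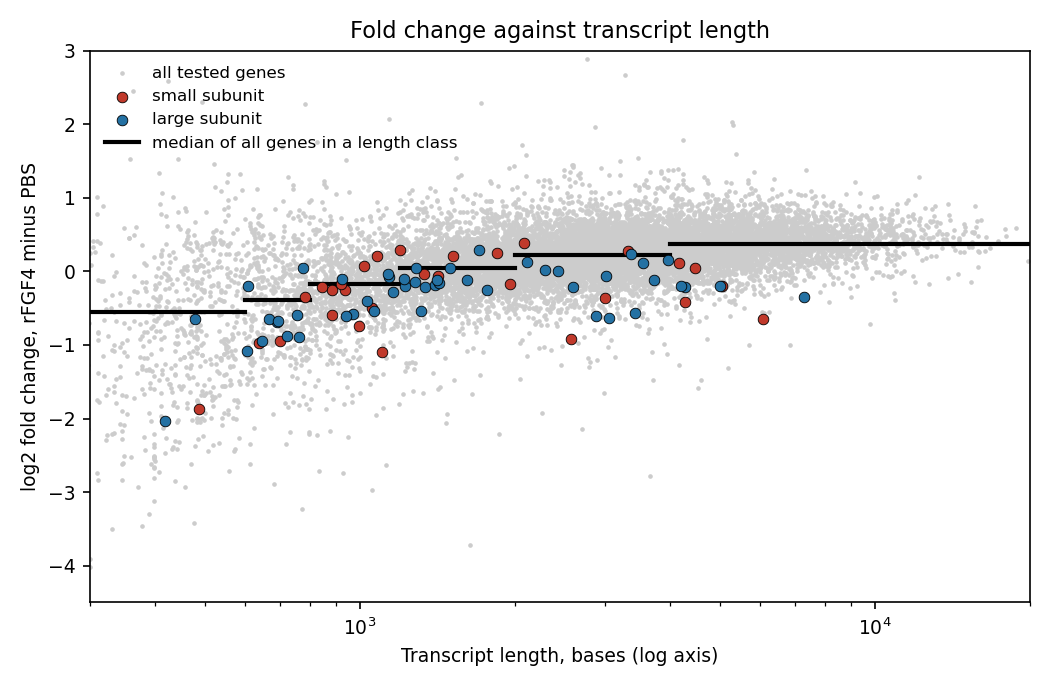
Log2 fold change against transcript length on a log axis for the tested genes (grey), small subunit genes (red) and large subunit genes (blue), with bars at the median of all genes in each of 6 length classes; genes beyond the axes are not drawn. Short genes of both subunits lie lowest, such as Mrpl52 (418 bases, -2.03) and Mrps21 (488 bases, -1.87), and in each length class most of the genes lie below the bar.

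Coding length, which varies less with the choice of annotated transcript end, was more closely tied to the fold change among these genes. The rank correlation with coding length was 0.69 over the 78, 0.82 in the small and 0.59 in the large subunit, and 0.40 over 12609 tested genes with a coding sequence. Of the 24 genes with coding sequences under 450 bases 13 fell, 5 of 9 in the small and 8 of 15 in the large subunit. Of the other 54 only Mrpl22 fell, with a coding sequence of 618 bases. Among all tested genes these shares were 23.4% under 450 bases and 0.403% above. Mrps16 and Mrpl57 have annotated transcripts of 2572 and 2877 bases but coding sequences of 405 and 306 bases. Over the 78, levels and base composition were less closely tied to the fold change, with rank correlations of -0.28 for mean FPKM and -0.17 for GC content. For mean FPKM it was -0.40 in the small and -0.17 in the large subunit, and -0.13 over all tested genes. For GC content it was -0.081 in the small and -0.22 in the large subunit, and -0.39 over the tested genes with an annotated length.

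**Figure D5:**
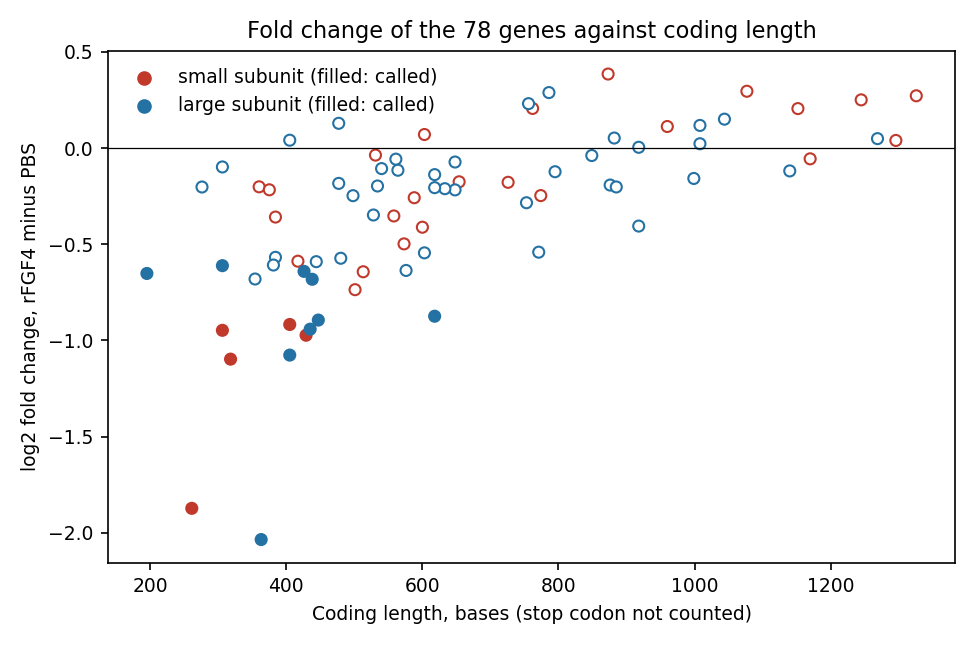
Log2 fold change against coding length in bases for small subunit (red) and large subunit genes (blue), filled where called lower. Of the 14 filled points 13 lie under 450 bases, and most positive values lie to the right, such as Mrps2 (873 bases, 0.39) and Mrps30 (1326 bases, 0.27).

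With the length trend subtracted from each sample, 6 of the 78 were called lower (1.61% of all genes) and 0 higher (0.543%), 3 in each subunit. They were Mrpl52 (log2 fold change -1.37, limma adjusted p = 0.00172), Mrps21 (-1.28, 0.00779), Mrps33 (-0.97, 0.02), Mrpl57 (-0.87, 0.0388), Mrpl54 (-0.59, 0.0443) and Mrps16 (-1.15, 0.0483). At an unadjusted p under 0.05, 33 were lower (8.13% of all genes) and 3 higher (8.10%). In that setting 61 of the 78 values were negative, where 52.7% of all genes were, and the median was -0.21 against -0.020 for all genes. The subunit medians were -0.22 and -0.21. Over the 78, the rank correlation of these values with transcript length was -0.17, and with coding length 0.41. A tie to coding length thus remained in that setting. Mrpl52 was also called there with each sample left out, Mrps21 was not without PBS replicate 1 or 2 (adjusted p = 0.0517 and 0.0508), Mrps33 was called only without rFGF4 replicate 2, Mrps16 only without rFGF4 replicate 1, and Mrpl54 and Mrpl57 in none of these fits. With lengths taken from the coding sequence instead, Mrpl14, Mrpl20 and Mrpl22 were called beside Mrpl52, Mrps21 and Mrpl54, and Mrps33 (adjusted p = 0.0504), Mrps16 and Mrpl57 were not.

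The authors' deposited table holds its own test of the same samples. By its q-value under 0.05, 31 of the 78 genes were lower and 0 higher, against 6.63% and 4.49% of all 16131 genes. That balance is the reverse of limma's, which called 3.62% of tested genes lower and 8.46% higher. The scaling behind the deposited test is not known, so its count cannot be set directly beside limma's. For Mrpl52 the authors' deposited table gives a fold of 0.243 (q = 2.13e-53), and for Mrps21 0.275 (q = 5.31e-24). For Mrpl30, Mrpl24 and Mrpl51, which limma did not call, the authors' deposited table gives q = 2.47e-05, 0.000267 and 0.00268.

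Some values are uncertain because reads can be shared. Exons of 28 of the 78 genes overlap those of another annotated gene, in 24 on the opposite strand, and the sources used here do not say if reads were assigned by strand. Among the called genes these were Mrpl14, which overlaps Tmem63b on the other strand, and Mrpl33 and Mrps18c, which overlap unnamed gene models on the same strand. Pseudogene entries were also listed: Mrpl23-ps1 measured 1.52, 1.85 and 1.77 FPKM in PBS and 1.40, 0.859 and 0.629 FPKM in rFGF4 samples, beside the called Mrpl23. Mrpl27-ps was called lower (log2 fold change -1.54, limma adjusted p = 0.0208), while Mrpl27 was not. Mrps36-ps1 was below the level for testing.

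The wider machinery of mitochondrial translation was read in gene lists. Beside the counts below, 3.62% of all tested genes were called lower and 8.46% higher. Of 5 mitochondrial ribosomal proteins with other names 1 fell: Chchd1, a small subunit protein, at 24.9 ± 3.94 and 14.1 ± 0.706 FPKM (SD, n = 3 each; limma adjusted p = 0.0226). Gadd45gip1, a large subunit protein, and Aurkaip1, a small subunit protein, missed the threshold at -0.43 and -0.42 on the log2 scale (adjusted p = 0.0818 and 0.0909). Of 15 translation factors 0 were called by limma, with a median of 0.22. Mtif2, an initiation factor, measured 7.47 ± 0.350 and 9.94 ± 0.768 FPKM (limma adjusted p = 0.0592). Of 27 assembly factors of the mitochondrial ribosome 1 rose and 0 fell, with a median of 0.030. The rise was that of Mterf3, from 4.19 ± 0.405 to 6.43 ± 0.468 FPKM (limma adjusted p = 0.0341). With the length trend removed neither Chchd1 nor Mterf3 passed (limma adjusted p = 0.273 and 0.129). In that setting Gadd45gip1 was called lower, at a log2 fold change of -0.65 (limma adjusted p = 0.0417). Of 17 mitochondrial aminoacyl-tRNA synthetases 0 were called, with a median of 0.12 and a median length of 3336 bases.

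Of 16 genes of mitochondrial transcription and RNA upkeep 2 rose and 1 fell. Slirp, which stabilizes mitochondrial messages with Lrpprc, measured 7.58 ± 0.591 FPKM in PBS and 1.78 ± 0.912 FPKM in rFGF4 samples (SD, n = 3 each), a 4.43-fold fall (limma adjusted p = 0.02). Mterf2 and Tfb2m rose 1.75-fold and 1.57-fold (limma adjusted p = 0.02 and 0.0408). With the length trend removed Slirp passed (limma adjusted p = 0.0215), and Mterf2 and Tfb2m did not (0.0607 and 0.261). Slirp has an annotated transcript of 2701 bases but a coding sequence of 336 bases, and the removal used the former. Of 15 mitochondrially encoded transcripts 1 fell, mt-Nd3, with 348 bases, from 815 ± 88.3 to 190.3 ± 9.61 FPKM (limma adjusted p = 0.00164). With the length trend removed mt-Nd3 also passed (log2 fold change -1.34, limma adjusted p = 0.00988). The genes mt-Atp8 and mt-Nd4l, annotated with 204 and 297 bases, had overlapping groups and log2 fold changes of 0.36 and 0.023. Their entries overlap those of mt-Atp6 and mt-Nd4 on the same strand, so reads may be shared. These annotated lengths may thus not be those of separate transcripts. The median of the 15 transcripts was 0.16 before the length trend was removed. Of 27 protein import genes 5 fell and 0 rose, where 3.62% of all tested genes were called lower and 8.46% higher: Tomm7 (31.0 ± 2.49 to 5.16 ± 2.05 FPKM, limma adjusted p = 0.00563), Timm8b, Tomm5, Timm13 and Timm10b. With the length trend removed 4 of these passed, and Tomm5 did not (limma adjusted p = 0.119). The 5 have coding sequences of 153 to 300 bases. Among all tested genes with coding sequences under 450 bases, 23.4% were called lower. Timm10b has an annotated transcript of 3273 bases, and its fold change was corrected by that length. Among 8 regulators of mitochondrial biogenesis Gabpa, an ETS factor, rose (log2 fold change 0.63, limma adjusted p = 0.0351) and 0 fell. Gabpa has a transcript of 4987 bases, and with the length trend removed it did not pass (adjusted p = 0.358).

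Markers of muscle and brown fat, tissues rich in mitochondria, and of other skin cells were read as well. Of 11 skeletal muscle markers 0 were called by limma and 10 of the 11 fold changes were negative (median -0.45), with sums of 2450 to 5223 FPKM in PBS and 1600 to 3324 FPKM in rFGF4 samples. The ranges overlap, and PBS replicate 1, the highest in 71 of the 78 ribosomal genes, also had the highest muscle sum. Among the treated samples the order differed: rFGF4 replicate 2, the highest of them in 68 of the 78, had the lowest muscle sum of all 6 samples. Of 6 brown adipocyte markers 3 fell, Ucp1, Cox8b and Cox7a1, where 3.62% of all tested genes were called lower. Cidea (limma adjusted p = 0.934), Elovl3 and Dio2 did not pass. The sum of the 6 was 62.1 to 92.6 FPKM in PBS and 31.7 to 71.9 FPKM in rFGF4 samples, lowest in rFGF4 replicate 1. With the length trend removed 0 of the 6 passed by limma, with log2 fold changes of -3.80 for Ucp1, against -3.72 before, -1.79 for Cox8b and -1.33 for Cox7a1 (adjusted p = 0.0811, 0.0868 and 0.208). No tested marker of either list was at 0 in any sample, and the lowest were Ucp1 at 0.253 FPKM and, of muscle, Ryr1 at 5.02 FPKM. Of 7 fibroblast markers 5 rose, where 8.46% of all tested genes and 18.0% of those of 4000 bases and over were called higher. The sum of the 7 was 2756 to 3473 FPKM in PBS and 4949 to 5547 FPKM in rFGF4 samples. The 7 had a median length of 5348 bases. With the length trend removed 0 of the 7 passed, at a median log2 fold change of 0.51 against 0.90 before. Keratinocyte, white adipocyte, neutrophil and proliferation lists had 0 calls by limma. Of 8 macrophage markers 1 rose, Mrc1, where 8.46% of all tested genes were called higher. Mrc1, with 5374 bases, also passed with the length trend removed (log2 fold change 1.20, limma adjusted p = 0.00291). The part of these cells in the values of the ribosomal genes was not tested.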

How the data were processed

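The 6 samples are poly(A) RNA-seq libraries with a strand mark (dUTP), per the labels' protocols. Of tools, the submitters' processing notes list StringTie, HISAT2, edgeR and fastp, with versions and roles not given in the sources used here, and as build GRCh38, which is human although the samples are mouse. The authors' deposited values are read as FPKM, since the header names no unit and the values are not whole; genes are listed from a maximum of 1.0001 FPKM. The authors also deposited a p-value and a q-value, a fold (a ratio of group means) and its log2 for each gene. Depth is unknown: at the best scale, 11.1% to 11.4% of low values per sample came within 0.05 of whole reads, where 10% would by chance.

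The limma-trend test was run on log2(FPKM + 0.1) for genes that reached 1 FPKM in 3 or more samples (limma 3.58.1, statmod 1.5.0, R 4.3.3; robust, two-sided). Lengths came from GENCODE M21 on GRCm38 (all 78 genes), as the longest principal transcript; coding length leaves out the stop codon. The length trend was a loess (span 0.3, degree 1) of deviations on log2 length. In tests on simulated data of 14676 genes, the calls took in 79.3% of log2 changes of 2 and 44.0% of log2 changes of 1. False calls averaged 7.33 per run. The simulated data held no length trend and spreads shuffled across genes, so these shares need not hold for the 78. The genes named are the called ones, those of smallest p per direction and subunit, the extremes of level and length, and some fixed by name; of other lists, those of smallest p. Genes and lists were chosen with earlier results of these data known. The labels give no batch. Every value column was matched to a sample. Plots were drawn with Python 3.11.15.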

Additional observations from a re-analysis of the deposited data

How the results depend on the processing

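Of the 78 genes, 14 were called in the reported setting. The count was 2 to 12 with 1 sample left out, 2 with the replicate number as a block (1 small, 1 large subunit), 6 with the length trend removed (3 and 3), 6 by coding length (1 and 5), 7 by the shortest principal transcript (4 and 3), 10 by the longest (3 and 7) and 2 with the length trend removed and a replicate block (1 and 1). With 1 sample left out there were 1 to 4 small and 1 to 8 large subunit calls, and 1 to 3 calls with the length trend removed. It was 12 to 16 with other pseudocounts, filters and scalings and without robust fitting. Mrpl57 was lost with no filter on low values (adjusted p = 0.0503), and Mrpl42 and Mrpl57 on scaling to a common total (0.0508 and 0.0521). Shortest principal, coding and trend-removed leave-one-out settings, and the subunit ratio without Mrps21, were added after seeing the data. Over all genes the count was 1773, and 233 with the block, 755 centred, 749 quantile normalized, 306 with the length trend removed, 315, 309 and 186 by the longest, shortest principal or coding length, 112 with trend removal and block, 156 to 890 with 1 sample left out and 73 to 221 with trend removal as well. The cause of these losses was not tested. Same-numbered samples share only a number: the correlations of their deviations, a check of the pairing, were 0.18, -0.067 and -0.13.

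The median log2 fold change of the 78 was -0.20, and -0.38 centred and -0.37 quantile normalized. The subunit difference of -0.015 was -0.14 among genes of at least 5 FPKM, 0.13 by the shortest principal transcript and -0.062 to 0.026 with 1 sample left out.

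Among the genes chosen to be named, signs changed only in those that were not called, and the values below are limited to that choice. Signs also changed in other genes with the length trend removed. Examples are Mrpl34, from a log2 fold change of -0.20 to 0.29, and Mrps5, from 0.040 to -0.31. With the length trend removed, with or without a block, Mrpl1 had -0.18, Mrpl3 -0.17, Mrpl47 -0.056, Mrpl50 -0.042, Mrps30 -0.012, Mrps35 -0.22 and Mrps18a 0.0077. By the longest transcript Mrpl1 had -0.15, Mrpl3 -0.15, Mrpl37 -0.16, Mrpl47 -0.023, Mrps30 -0.014, Mrps35 -0.22 and Mrpl18 0.012. By the shortest principal transcript Mrpl1 had -0.19, Mrpl3 -0.18, Mrpl37 -0.027, Mrpl47 -0.069, Mrpl50 -0.067, Mrps30 -0.026, Mrps35 -0.23 and Mrps17 0.0061. By coding length Mrpl1 had -0.078, Mrpl3 -0.053, Mrpl37 -0.19, Mrps31 -0.015, Mrps35 -0.072 and Mrps17 0.062. Centred, Mrpl1 had -0.063, Mrpl3 -0.030, Mrpl37 -0.13, Mrpl50 -0.052 and Mrps35 -0.068, and quantile normalized Mrpl1 -0.065, Mrpl3 -0.039, Mrpl37 -0.087 and Mrps35 -0.058. With 1 sample left out Mrpl1 ranged from -0.055 to 0.35 and Mrpl37 from -0.035 to 0.16.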
